A study of Arabidopsis thaliana with 8 samples.

Results

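Late embryogenesis abundant (LEA) proteins other than dehydrins, together with the small KIN proteins, were followed in Arabidopsis thaliana seedlings given abscisic acid (ABA). The set is a list of 41 loci, taken by locus number from the 33674 features of the deposited count table, and all 41 have a row there. By protein family it holds 2 LEA_5 (Em) genes, 18 LEA_4 genes, 3 LEA_1 genes, 3 LEA_2 genes, 4 LEA_3 genes, 2 PvLEA18 genes, 6 seed maturation protein (SMP) genes and 3 KIN genes. The list goes by locus and family, and it was drawn up with earlier results of these data known. The material was whole seedlings 13 days old, of Columbia-0 wild type and of the skip-1 mutant in the same growth conditions, which were long days. Each genotype received ABA at 0 or 100 µM for 3 h, which gives 4 groups, and each group has 2 libraries. Libraries with 0 µM are called untreated or without ABA here, and the labels do not describe the skip-1 lesion.

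LEA proteins accumulate late in seed development, when the embryo dries, and many of them are also made in leaves and roots during drought, cold or ABA treatment. Most are very hydrophilic and poorly folded in water, and several protect enzymes or membranes during drying or freezing in laboratory assays. ABA reaches their genes through bZIP factors (ABI5 and the ABF or AREB proteins) that bind ABA-response elements (ABREs) with the core ACGTG, while CBF and DREB2 factors bind the DRE and CRT elements ACCGAC and GCCGAC. SKIP is a splicing-associated protein of the spliceosome, and the study set ABA responses with and without the skip-1 mutation side by side.

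The libraries held between 20870110 and 23640113 counted reads, and replicates of a group differed by more than sampling noise. Levels are in CPM, counts scaled to library size, with library sizes scaled by the trimmed mean of M values (TMM). SKIP itself stood at 150 and 163 CPM in untreated wild type, 136 and 161 in treated wild type, 104 and 133 in untreated skip-1, and 108 and 125 in treated skip-1. Every skip-1 library was below every wild-type library, but the genotype differences of -0.40 ± 0.15 (log2, SE) without ABA and -0.35 ± 0.15 with ABA had edgeR adjusted p-values of 0.0822 and 0.10, or 0.0104 and 0.0152 with a replicate block. Markers of seedling tissue were abundant, since 4 leaf mesophyll genes summed to between 17477 and 41751 CPM and 4 root genes to between 960 and 2196 CPM. The leaf and root sums were both lower with ABA in each genotype. In either treatment the leaf sum was higher and the root sum lower in skip-1 than in wild type. Of the 4 leaf genes, 2 were called lower with ABA in wild type and 1 in skip-1. Against wild type, 2 of the 4 were called higher in skip-1 in each treatment. With ABA, RBCS1A overlapped between genotypes (9142 and 7631 CPM in wild type, 8902 and 9240 in skip-1). PYK10 gave nearly all of the root sum (2162 and 1934 CPM in untreated wild type). Of the 4 root genes, 3 were called lower with ABA in each genotype, and AT5G47450 higher (edgeR adjusted p = 0.0422 and 0.0119). Against wild type, AT5G47450 was called lower in skip-1 in both treatments, and PYK10 only with ABA. CASP1 overlapped between genotypes in both treatments. COBL9 was higher in both skip-1 libraries in each treatment, but not called (edgeR adjusted p = 0.109 and 0.0668). The sum of 4 guard cell genes went from 1901 and 1999 to 1290 and 1285 CPM with ABA in wild type, and in skip-1 it went from 1873 and 1972 to 1795 and 1693 CPM. TGG1 gave nearly all of this sum (1833 and 1922 CPM in untreated wild type). With ABA in wild type, 3 of the 4 genes were called lower, but KAT1 was called higher (edgeR adjusted p = 0.0422). In contrast, 10 embryo and seed storage genes summed to only 1.59 to 7.10 CPM, and CRU2, CRU3 and SESA3 had no count in any library. OLEO4, an oil body protein, gave most of that sum in wild type (1.54 to 6.69 CPM). SESA2, a seed storage albumin, had 1.76 and 1.27 CPM in untreated skip-1 and no count in untreated wild type, and it was called higher there (edgeR adjusted p = 0.00312). In bulk seedlings, fewer cells of a type and less RNA per cell cannot be told apart, and the part that tissue makeup has in the results below was not tested.

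The ABRE core was frequent in front of these genes. In the 250 bases before the annotated start of each gene (RefSeq annotation of TAIR10.1, used for all positions here), ACGTG was found on either strand for 30 of 41 members (73.2%), against 22.9% of 27443 protein-coding genes, where a CACGTG palindrome counts on both strands. ACCGAC was found for 9 members (22.0%, against 4.70%), GCCGAC for 6 (14.6%, against 2.56%), and the seed RY element CATGCA for 6 (14.6%, against 8.43%). The 11 windows without ACGTG include those of UNE15, COR15B, LEA26, LEA3, SAG21 and AT2G33690. A match is only a run of letters, and the windows of 10 members overlap a neighbouring gene. The RefSeq transcript of a gene can also differ in length from the gene length that the authors used. It has 1584 against 653 bases for COR15B, 1544 against 667 for COR15A and 4151 against 605 for UNE15. For AT2G42560 both are 2174. Where they differ, the window may lie away from the start of the transcript that was counted. The windows below belong to the 4 members with the largest fitted log2 changes called with ABA in wild type among those reaching 10 CPM, and to AT3G02480, which was chosen after its values were seen because its ABA change differed most between genotypes. The place of EM1 among the 4 rests on a fitted value over 0 counts without ABA, since its counting bound is only at least 234-fold. The windows run 5′ to 3′ on the strand of the gene and end at the base before its annotated start, and capitals mark ACGTG or its reverse complement CACGT.
EM1, chr3:19214472-19214721, plus strand: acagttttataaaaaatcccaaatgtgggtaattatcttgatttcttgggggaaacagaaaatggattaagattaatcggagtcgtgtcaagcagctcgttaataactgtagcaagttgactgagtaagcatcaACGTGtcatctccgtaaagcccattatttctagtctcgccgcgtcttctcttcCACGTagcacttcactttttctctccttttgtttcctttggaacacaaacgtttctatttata
AT3G17520, chr3:6000448-6000697, minus strand: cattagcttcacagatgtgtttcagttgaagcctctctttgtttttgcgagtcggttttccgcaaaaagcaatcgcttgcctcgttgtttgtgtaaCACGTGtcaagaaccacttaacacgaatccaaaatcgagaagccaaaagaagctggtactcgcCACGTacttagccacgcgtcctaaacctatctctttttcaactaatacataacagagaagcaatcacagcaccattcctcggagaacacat
AT2G42560, chr2:17716913-17717162, minus strand: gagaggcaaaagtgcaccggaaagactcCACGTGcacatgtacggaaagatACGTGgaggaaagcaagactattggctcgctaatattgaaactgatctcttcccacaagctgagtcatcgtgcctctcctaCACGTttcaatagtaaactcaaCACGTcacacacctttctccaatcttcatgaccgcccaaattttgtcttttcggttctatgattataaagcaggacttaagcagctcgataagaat
LEA7, chr1:19619474-19619723, plus strand: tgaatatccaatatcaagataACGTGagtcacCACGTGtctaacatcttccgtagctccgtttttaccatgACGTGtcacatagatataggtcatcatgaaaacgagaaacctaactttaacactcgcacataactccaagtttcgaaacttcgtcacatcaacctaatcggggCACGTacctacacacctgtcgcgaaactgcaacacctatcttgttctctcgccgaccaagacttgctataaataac
AT3G02480, chr3:511970-512219, plus strand: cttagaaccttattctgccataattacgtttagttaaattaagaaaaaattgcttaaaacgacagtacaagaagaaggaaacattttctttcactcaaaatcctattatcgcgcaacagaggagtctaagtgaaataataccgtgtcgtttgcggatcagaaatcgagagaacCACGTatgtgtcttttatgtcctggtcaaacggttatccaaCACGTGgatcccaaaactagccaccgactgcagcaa

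**Figure D1:**
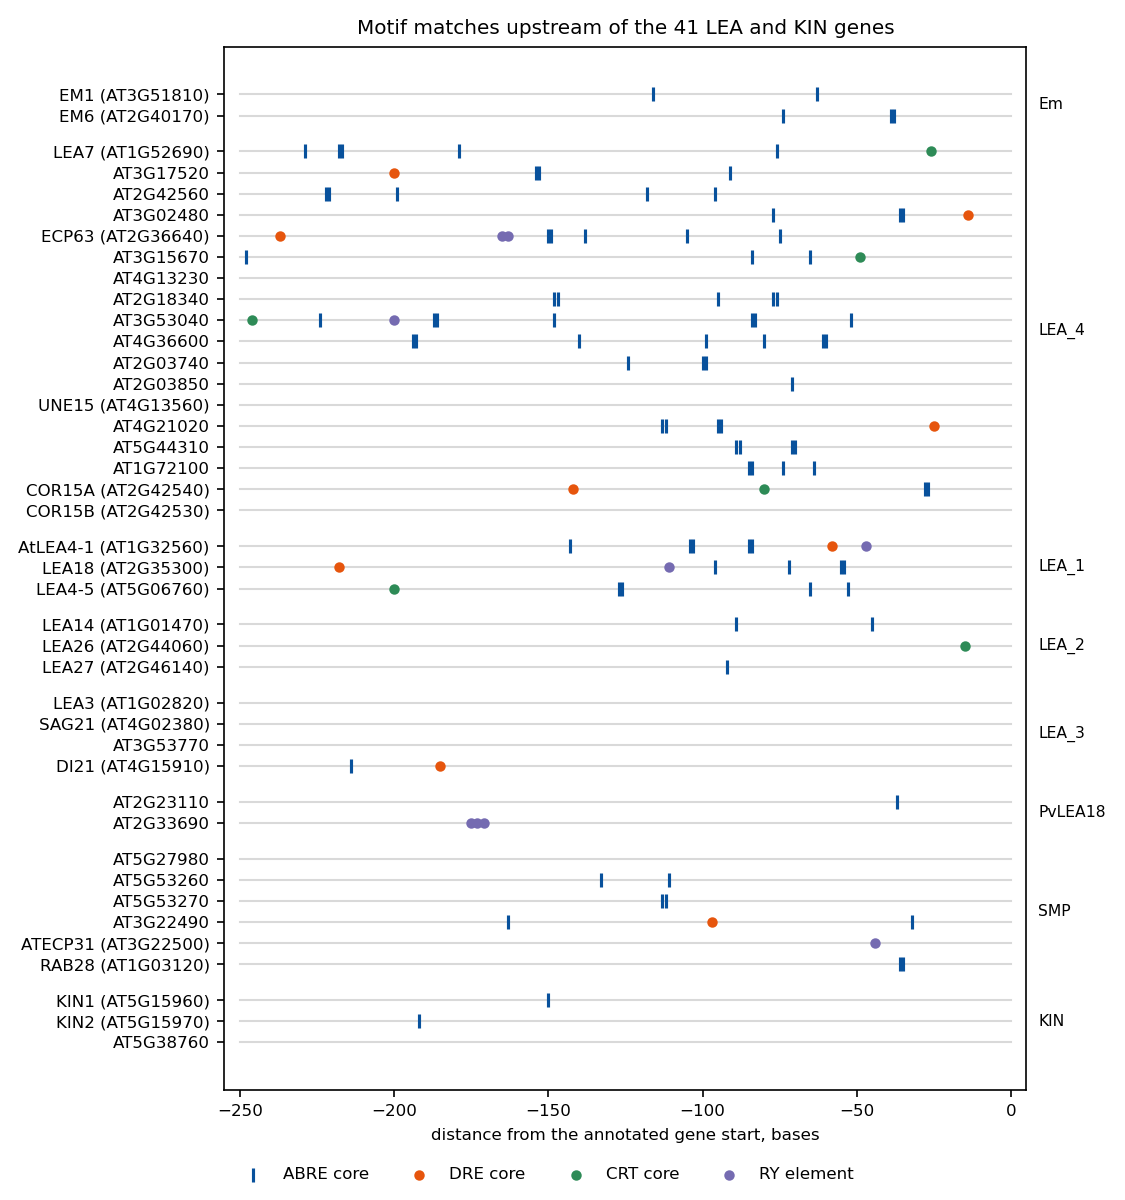
Position of the 4 searched motifs in the 250 bases upstream of each member's annotated start, with 1 row per member and the distance to the start in bases on the horizontal axis. The ABRE core is present in 30 of 41 rows, and the rows of SAG21, LEA3 and COR15B hold none of the motifs.

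The windows of AT2G42560 and LEA7 hold 5 ACGTG matches each, those of AT3G17520 and AT3G02480 hold 3 each, and that of EM1 holds 2. An ACCGAC match is also present in the windows of AT3G17520 and AT3G02480, and a GCCGAC match in that of LEA7. COR15A has an ACGTG on both strands together with 1 ACCGAC and 1 GCCGAC, while its tandem neighbour COR15B has none of these in its window, which runs into the end of COR15A. Since the RefSeq transcript of COR15B is longer than the length the authors used, its window may miss the sequence before the counted transcript.

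ABA multiplied the share of counted reads that came from these genes. Their counts made up 0.142% and 0.158% of all counts in untreated wild type and 1.26% and 1.22% in treated wild type. In skip-1 they made up 0.0743% and 0.109% in the untreated libraries and 0.977% and 0.879% in the treated ones. All 4 libraries with ABA were above all 4 without, and within each treatment both skip-1 libraries were below both wild-type libraries. Without ABA, SAG21 alone had 15606 of 32098 and 16902 of 37211 member counts in wild type. In untreated skip-1 it had 2980 of 17556 and 7050 of 23025. Much of the difference in share without ABA thus lay in SAG21, whose own genotype difference was not called (edgeR adjusted p = 0.0703). KIN2, a small cold- and ABA-inducible protein, gave 24.3% and 27.0% of the members' counts in wild type with ABA and 35.8% and 38.3% in skip-1 with ABA. COR15A, a chloroplast stroma protein that protects membranes during freezing, gave a further 16.6% and 15.4%, and 22.9% and 19.7%, in the same libraries.

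**Figure D2:**
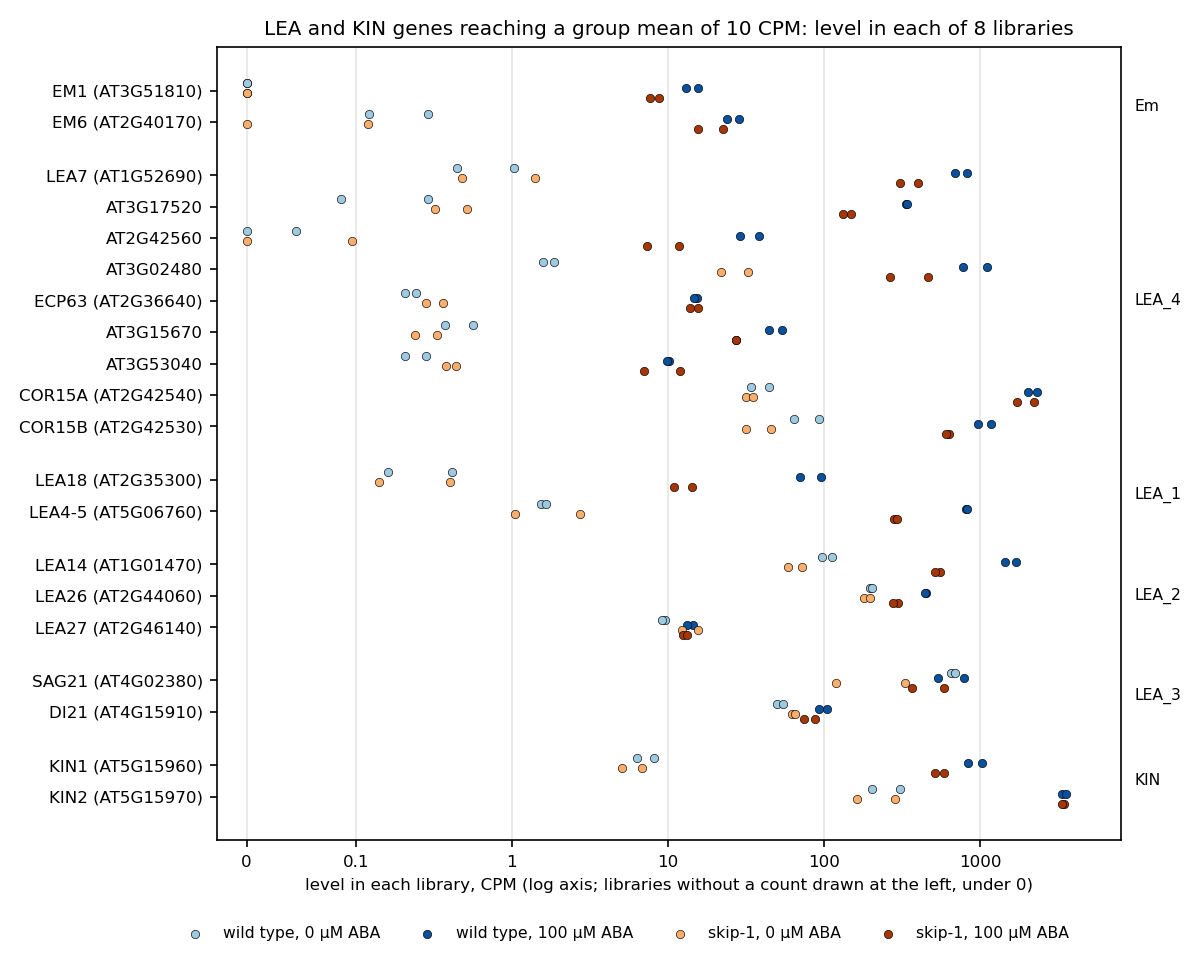
Level in CPM (log horizontal axis, with 0 drawn at its left end) of the 20 members that reached a mean of 10 CPM in a group, 1 row per member and 1 point per library, coloured by group. The points with ABA lie to the right of those without in most rows, and in the SAG21 row they overlap for wild type.

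Not all members could be tested. AT5G53260 and AT5G53270, both SMP genes, had no count in any library. A further 8 had too few counts for the expression filter, namely the LEA_4 genes AT4G13230, AT2G03740 and AT2G03850, the LEA_3 gene AT3G53770, the SMP genes AT5G27980, AT3G22490 and ATECP31, and the KIN relative AT5G38760. Their counts over both libraries of a group reached at most 14 (AT2G03850 in wild type with ABA). AT4G13230 had more counts in skip-1, with 10 and 3 counts without ABA against 0 and 1 in wild type, a ratio of 13.7 with a 95% counting interval of 2.06 to 583. The other 31 were tested, but 16 of these passed the filter only through libraries with ABA and therefore had to differ by treatment, so the counts below describe the members and are not evidence about them as a set.

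In wild type, 30 of the 31 tested members were higher with ABA and none was lower at an edgeR quasi-likelihood adjusted p below 0.05, while 43.1% of all 21008 tested features were called, 23.7% higher and 19.5% lower. No member was lower at an unadjusted p below 0.05 or by DESeq2 in either genotype. The median log2 change in wild type was 6.02, or 5.58 with the 5 members that had no count without ABA set at their counting bound, against -0.01 over all tested features. Among the 15 members that also passed the filter on libraries without ABA, a subset formed after the data were seen, 14 were called higher and the median was 3.77. SAG21 was the exception, at -0.01 ± 0.48 (edgeR adjusted p = 0.987). In skip-1, 25 of 31 were higher and none lower, where 28.5% of all features were called, 16.3% higher and 12.1% lower. Here the median was 5.45, or 5.31 with 2 members at their bound, and 9 of the 15 in the subset were called, with a median of 3.03. The labels do not say that replicates are separate cultures, so these p-values measure only the spread between libraries. Without 1 library, the wild-type calls of UNE15 (either library without ABA, or either with), LEA27 (either without ABA, or replicate 1 with), LEA3 (either without ABA, replicate 1 with, or either skip-1 library without ABA) and RAB28 (replicate 1 without ABA, or either with) were lost. Over all alternatives tried their edgeR or DESeq2 adjusted p reached 0.202, 0.0998, 0.166 and 0.143, respectively. In skip-1, the call of AT4G21020 was lost without replicate 2 of the libraries without ABA (edgeR adjusted p = 0.0614), and that of AT2G23110 without replicate 1 of either treatment (up to 0.0555).

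**Figure D3:**
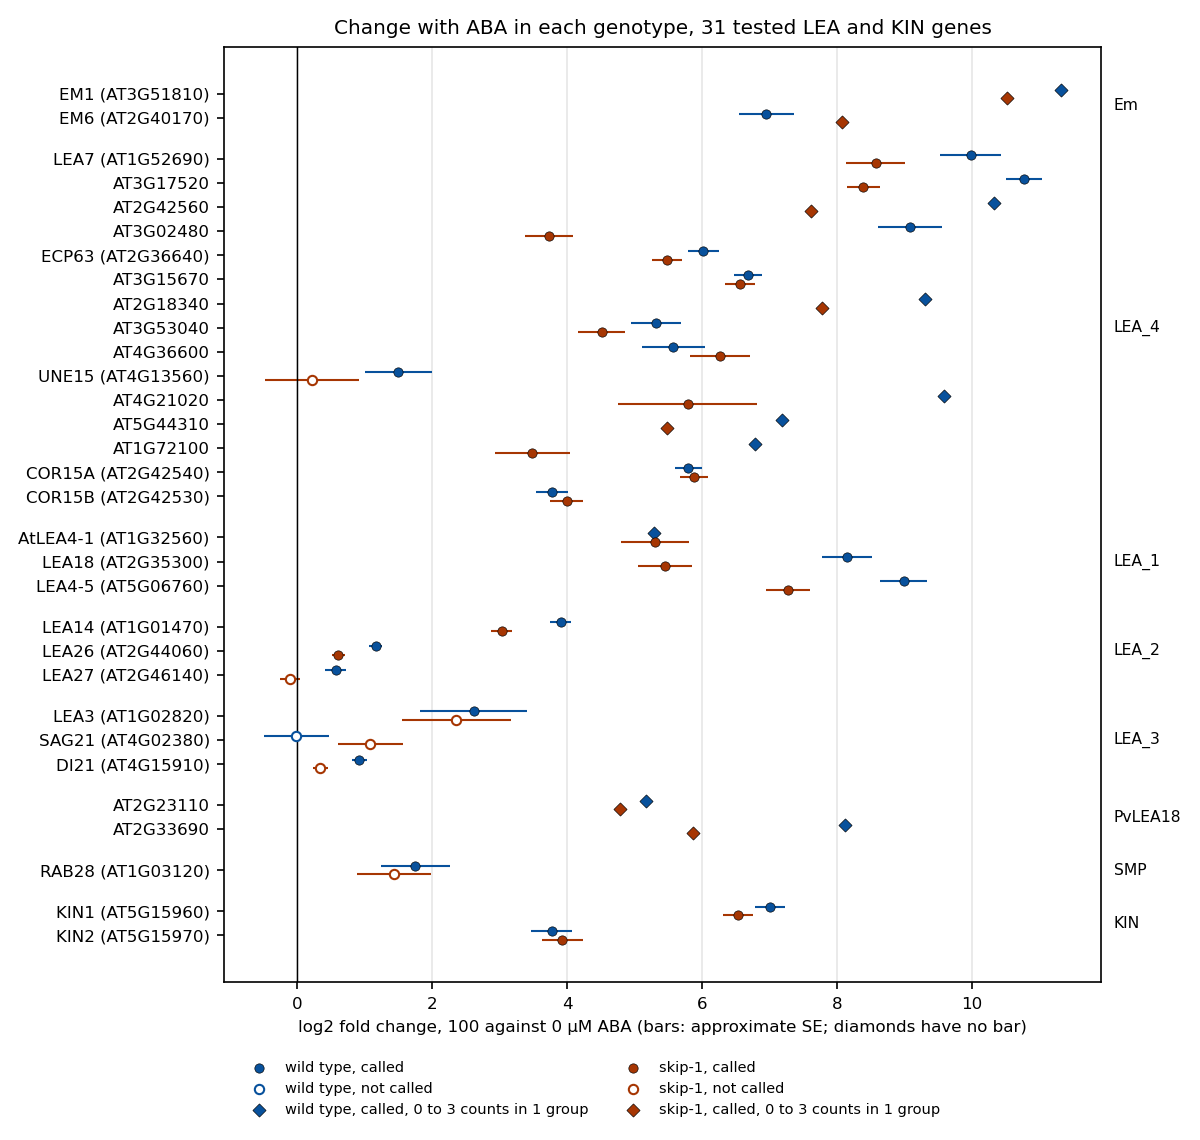
Log2 change with ABA in wild type and in skip-1 for each tested member, with bars of 1 SE, filled symbols where the edgeR adjusted p is below 0.05, and diamonds with no bar where 1 group had 0 to 3 counts. Wild type has 30 filled symbols on the side of higher levels with ABA and skip-1 has 25.

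The Em proteins are the classical wheat-type LEA proteins of the dry embryo, and both genes were nearly silent in seedlings without ABA. EM1 (AT3G51810) had 0 and 0 CPM in untreated wild type, 15.6 and 13.1 in treated wild type, 0 and 0 in untreated skip-1, and 7.65 and 8.81 in treated skip-1. Its libraries with ABA thus stood above all others, and both skip-1 libraries with ABA were below both of wild type. Counted against a floor of 3 counts over the group, EM1 was at least 234-fold higher with ABA in wild type and at least 127-fold higher in skip-1. EM6 (AT2G40170) had 0.291 and 0.122 CPM in untreated wild type, 28.5 and 23.8 in treated wild type, 0.120 and 0 in untreated skip-1, and 22.5 and 15.6 in treated skip-1. It was 6.96 ± 0.41 higher on the log2 scale with ABA in wild type, and 294-fold higher in skip-1 (838 against 3 counts, 95% counting interval 100 to 1427). With ABA, EM1 was lower in skip-1 by a log2 change of -0.80 ± 0.19 (edgeR adjusted p = 0.0220), and EM6 by -0.46 ± 0.25, which did not pass (0.198). The EM1 call was lost without any 1 of the 4 libraries with ABA, at an adjusted p of up to 0.128.

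LEA_4 is the largest family, with proteins of short repeated motifs that can fold into helices as water is lost. All 15 tested LEA_4 members were called higher in wild type and 14 in skip-1, where 23.7% and 16.3% of all features were, but 10 of the 15 passed the filter only through libraries with ABA. LEA7 (AT1G52690) had 1.04 and 0.446 CPM in untreated wild type, 823 and 689 in treated wild type, 0.481 and 1.41 in untreated skip-1, and 399 and 308 in treated skip-1. AT3G17520 had 0.291 and 0.0810 CPM in untreated wild type, 332 and 338 in treated wild type, 0.321 and 0.517 in untreated skip-1, and 148 and 133 in treated skip-1. AT2G42560 had 0.0415 and 0 CPM in untreated wild type, 38.0 and 29.1 in treated wild type, 0 and 0.0941 in untreated skip-1, and 11.8 and 7.31 in treated skip-1. Without ABA the genotypes overlapped for LEA7 and AT2G42560, while AT3G17520 was slightly higher in both skip-1 libraries, by 1.13 ± 0.49 on the log2 scale, which did not pass (edgeR adjusted p = 0.136). With ABA both wild-type libraries of all 3 were above both skip-1 libraries. The log2 change with ABA was 9.99 ± 0.46 in wild type and 8.58 ± 0.44 in skip-1 for LEA7, and 10.78 ± 0.27 and 8.40 ± 0.24 for AT3G17520. AT2G42560 was 1643-fold higher in wild type (1326 against 1 count, 95% counting interval 294 to 64940) and 221-fold higher in skip-1 (421 against 2 counts, 60.9 to 1833). Counts of LEA7 could include reads of AT1G52695, which overlaps it on the opposite strand, since the sources used here do not say whether counting was by strand.

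AT3G02480, a very small LEA_4 protein, was the member whose ABA change differed most between genotypes. It had 1.87 and 1.58 CPM in untreated wild type, 1110 and 776 in treated wild type, 32.5 and 22.0 in untreated skip-1, and 466 and 262 in treated skip-1. Without ABA both skip-1 libraries were far above both of wild type, and with ABA both were below. The genotype difference was 3.98 ± 0.42 (log2, edgeR adjusted p = 0.00217) without ABA and -1.37 ± 0.32 (0.0201) with ABA. ABA raised it by 9.09 ± 0.47 in wild type and by 3.74 ± 0.36 in skip-1. The lower level with ABA was not called without replicate 1 of wild type with ABA or replicate 2 of skip-1 with ABA, where the adjusted p reached 0.0904.

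Other LEA_4 genes answered ABA at lower levels. ECP63 (AT2G36640), an embryonic cell protein, had 0.208 and 0.243 CPM in untreated wild type, 15.4 and 14.6 in treated wild type, 0.361 and 0.282 in untreated skip-1, and 13.8 and 15.7 in treated skip-1. AT3G15670 had 0.374 and 0.567 CPM in untreated wild type, 53.4 and 44.4 in treated wild type, 0.240 and 0.329 in untreated skip-1, and 27.1 and 27.3 in treated skip-1. AT3G53040 had 0.208 and 0.284 CPM in untreated wild type, 10.2 and 9.82 in treated wild type, 0.441 and 0.376 in untreated skip-1, and 12 and 7.0 in treated skip-1. With ABA the genotypes overlapped for ECP63 and AT3G53040 and were apart for AT3G15670, which was lower in skip-1 by -0.85 ± 0.14 (log2, edgeR adjusted p = 0.00301). The ABA changes in wild type were 6.02 ± 0.23 for ECP63, 6.68 ± 0.21 for AT3G15670 and 5.31 ± 0.37 for AT3G53040, and those in skip-1 were 5.48 ± 0.22, 6.57 ± 0.23 and 4.51 ± 0.34. AT4G36600, AT2G18340, AT4G21020, AT5G44310, AT1G72100 and UNE15 stayed below 10 CPM in every group. AT4G21020 was at least 71.0-fold higher with ABA in wild type, and its replicates were far apart, with 121 and 51 counts in wild type and 200 and 75 in skip-1. In skip-1 its log2 change was 5.79 ± 1.03, or 10.09 without replicate 1 of the libraries without ABA, which leaves that group with no count. AT2G18340 was at least 57.8-fold higher in wild type and at least 18.9-fold in skip-1, and AT5G44310 at least 13.2-fold in wild type and 55.7-fold in skip-1 (53 against 1 count, 95% counting interval 9.58 to 2242). AT1G72100 rose 140-fold in wild type on 113 against 1 count (95% counting interval 24.6 to 5578) and by 3.49 ± 0.56 (log2) in skip-1. AT4G36600 rose by 5.58 ± 0.46 in wild type and 6.26 ± 0.45 in skip-1. UNE15 (AT4G13560) rose by 1.5 ± 0.50 in wild type (edgeR adjusted p = 0.0379) and had a change of 0.22 ± 0.70 in skip-1 (0.840). Other genes overlap UNE15 on both strands in RefSeq, where its transcript has 4151 bases against the 605 that the authors used.

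COR15A and COR15B are tandem genes for chloroplast LEA_4 proteins that stabilise membranes during freezing, and only COR15B differed between genotypes by the test. COR15A (AT2G42540, chr2:17710441-17712330) had 33.9 and 44.1 CPM in untreated wild type, 2295 and 2036 in treated wild type, 31.5 and 35.1 in untreated skip-1, and 2204 and 1729 in treated skip-1. COR15B (AT2G42530, chr2:17708593-17710433) had 64.4 and 92.9 CPM in untreated wild type, 1181 and 974 in treated wild type, 31.7 and 45.5 in untreated skip-1, and 628 and 603 in treated skip-1. The genotypes overlapped in both treatments for COR15A, while both skip-1 libraries of COR15B were below both of wild type in each treatment. COR15A rose with ABA by 5.80 ± 0.20 in wild type and 5.89 ± 0.20 in skip-1 (log2), and COR15B by 3.78 ± 0.24 and 4.0 ± 0.24. COR15B was lower in skip-1 by -1.03 ± 0.22 without ABA (edgeR adjusted p = 0.0166) and by -0.81 ± 0.21 with ABA (0.0250), against -0.23 ± 0.17 (0.369) and -0.14 ± 0.16 (0.548) for COR15A. Whether the pair differ from each other in this was not tested. The COR15B call without ABA was lost without replicate 2 of wild type or replicate 1 of skip-1 (up to 0.0882), and the call with ABA without replicate 1 of wild type or either of skip-1 (up to 0.133). Their coding sequences are 82.6% identical, and the longest stretch that their transcripts share has 31 bases. In RefSeq COR15B also overlaps AT2G42520 on the opposite strand, with a transcript of 1584 bases against the 653 that the authors used. Some reads could thus be assigned wrongly.

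The 3 LEA_1 genes, whose proteins protect enzymes during drying, differed between genotypes in opposite directions with ABA. LEA18 (AT2G35300, chr2:14862779-14863412, a LEA_1 gene despite its symbol) had 0.415 and 0.162 CPM in untreated wild type, 96.1 and 70.6 in treated wild type, 0.401 and 0.141 in untreated skip-1, and 14.2 and 10.9 in treated skip-1. LEA4-5 (AT5G06760) had 1.54 and 1.66 CPM in untreated wild type, 811 and 826 in treated wild type, 1.04 and 2.73 in untreated skip-1, and 282 and 292 in treated skip-1. AtLEA4-1 (AT1G32560) had 0.125 and 0 CPM in untreated wild type, 2.82 and 2.40 in treated wild type, 0.0801 and 0.329 in untreated skip-1, and 8.43 and 7.54 in treated skip-1. No member of the trio was apart between genotypes without ABA. With ABA, both skip-1 libraries were below both of wild type for LEA18 and LEA4-5 and above both for AtLEA4-1. The genotype difference with ABA was -2.74 ± 0.24 for LEA18 (edgeR adjusted p = 0.000468), -1.51 ± 0.24 for LEA4-5 (0.00365) and 1.61 ± 0.36 for AtLEA4-1 (0.0111). AtLEA4-1 was the member called higher in skip-1 with ABA, and AT4G36600 joined it with the replicate block (edgeR adjusted p = 0.0232), with library size scaling (0.0352) and without replicate 2 of skip-1 with ABA (0.0348). The call of AtLEA4-1 was lost without either wild-type library with ABA or replicate 1 of skip-1 with ABA (up to 0.0693). Its level was low in every library, at most 8.43 CPM. The log2 change with ABA was 8.15 ± 0.37 in wild type and 5.45 ± 0.40 in skip-1 for LEA18, and 8.99 ± 0.35 and 7.28 ± 0.33 for LEA4-5. AtLEA4-1 rose 42.5-fold in wild type (103 against 3 counts, 95% counting interval 14.2 to 210) and by 5.31 ± 0.50 (log2) in skip-1.

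The LEA_2 proteins differ from the rest in having a folded beta-sandwich domain, and their genes were expressed without ABA. LEA14 (AT1G01470, chr1:171525-172948) had 112 and 96.8 CPM in untreated wild type, 1692 and 1435 in treated wild type, 58.3 and 72.4 in untreated skip-1, and 554 and 513 in treated skip-1. LEA26 (AT2G44060) had 196 and 204 CPM in untreated wild type, 453 and 443 in treated wild type, 180 and 197 in untreated skip-1, and 298 and 277 in treated skip-1. LEA27 (AT2G46140) had 9.55 and 9.11 CPM in untreated wild type, 14.5 and 13.2 in treated wild type, 12.3 and 15.6 in untreated skip-1, and 12.5 and 13.2 in treated skip-1. LEA14 was lower in both skip-1 libraries in each treatment, LEA26 was apart between genotypes with ABA, and LEA27 without ABA. The genotype difference of LEA14 was -0.67 ± 0.14 without ABA (log2, edgeR adjusted p = 0.0137) and -1.55 ± 0.14 with ABA (0.000372), the smallest adjusted p among the members with ABA. LEA26 was lower by -0.64 ± 0.10 with ABA (0.00226), and LEA27 was higher by 0.58 ± 0.15 without ABA (0.0287). ABA raised LEA14 by 3.91 ± 0.16 in wild type and 3.03 ± 0.15 in skip-1, LEA26 by 1.16 ± 0.10 and 0.61 ± 0.10, and LEA27 by 0.57 ± 0.15 in wild type. LEA27 in skip-1 had a change of -0.12 ± 0.15, which did not pass (0.595). The calls without ABA were lost without replicate 1 of either genotype for LEA14 (up to 0.0783), and without either wild-type library or replicate 2 of skip-1 for LEA27 (up to 0.143).

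LEA_3 proteins include SAG21, a mitochondrial protein of senescence and oxidative stress, and in skip-1 the call of the 3 tested genes depended on the fit. SAG21 (AT4G02380) had 648 and 685 CPM in untreated wild type, 538 and 783 in treated wild type, 119 and 332 in untreated skip-1, and 367 and 589 in treated skip-1. The treatments overlapped in wild type, and in skip-1 both libraries with ABA were above both without. LEA3 (AT1G02820) had 1.58 and 1.66 CPM in untreated wild type, 13.8 and 6.11 in treated wild type, 2.00 and 0.988 in untreated skip-1, and 12.8 and 2.86 in treated skip-1. DI21 (AT4G15910), a drought-induced gene, had 49.8 and 54.6 CPM in untreated wild type, 105 and 92.8 in treated wild type, 62.2 and 64.9 in untreated skip-1, and 87.0 and 74.1 in treated skip-1. Both were above their level without ABA in every library with ABA. In wild type LEA3 rose by 2.61 ± 0.79 (log2, edgeR adjusted p = 0.0372) and DI21 by 0.92 ± 0.11 (0.000280), while the changes in skip-1 were 2.36 ± 0.80 for LEA3 (0.0736), 1.08 ± 0.48 for SAG21 (0.149) and 0.34 ± 0.11 for DI21 (0.0509). None of these 3 changes in skip-1 passed, though LEA3 and DI21 had an unadjusted p below 0.05. LEA3 was called in skip-1 by DESeq2 (0.0297), with the replicate block (edgeR adjusted p = 0.0132) and without replicate 2 of skip-1 with ABA (0.00933). DI21 was called with the block (0.0365) and without that same library (0.0496), and SAG21 without replicate 2 of skip-1 without ABA (0.0111). Without ABA, SAG21 was at -1.56 ± 0.49 in skip-1 against wild type (0.0703), and its skip-1 replicates were far apart. It was called lower by DESeq2, with the replicate block and without replicate 2 of skip-1 without ABA. SAG21 shares its strand with the overlapping gene AT4G04125.

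The PvLEA18 and SMP families contributed little. The PvLEA18 genes AT2G23110 and AT2G33690 reached at most 39 counts in a library. AT2G23110 rose 40.9-fold in wild type (66 against 2 counts, 95% counting interval 10.9 to 345) and 34.7-fold in skip-1 (33 against 1, 5.81 to 1411). AT2G33690 rose at least 25.2-fold in wild type and 73.6-fold in skip-1 (70 against 1, 12.8 to 2948), and it overlaps AT2G33685 on the opposite strand. Of the 6 SMP genes, whose products are typical of maturing seeds, only RAB28 (AT1G03120) was tested. It had 0.249 and 0.527 CPM in untreated wild type, 1.14 and 1.51 in treated wild type, 0.240 and 0.470 in untreated skip-1, and 0.683 and 1.23 in treated skip-1. The libraries with ABA were above those without in each genotype, with log2 changes of 1.75 ± 0.52 in wild type (edgeR adjusted p = 0.0237) and 1.44 ± 0.55 in skip-1 (0.0816, or 0.0344 with the replicate block).

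KIN1 and KIN2 are tandem genes for small hydrophilic proteins named for their likeness to fish antifreeze proteins, and both rose with ABA. KIN1 (AT5G15960, chr5:5209717-5210826) had 8.14 and 6.32 CPM in untreated wild type, 836 and 1032 in treated wild type, 5.05 and 6.87 in untreated skip-1, and 588 and 517 in treated skip-1. KIN2 (AT5G15970, chr5:5211719-5212743) had 202 and 306 CPM in untreated wild type, 3365 and 3571 in treated wild type, 164 and 283 in untreated skip-1, and 3449 and 3366 in treated skip-1. The genotypes overlapped in both treatments for KIN2 and without ABA for KIN1, while with ABA KIN1 was below wild type in both skip-1 libraries. KIN1 rose by 7.01 ± 0.22 in wild type and 6.54 ± 0.22 in skip-1 (log2), and KIN2 by 3.77 ± 0.30 and 3.93 ± 0.31. With ABA the genotype difference was -0.76 ± 0.17 for KIN1 (edgeR adjusted p = 0.0119) and -0.03 ± 0.27 for KIN2 (0.955). The KIN1 call was lost without replicate 2 of either genotype with ABA (up to 0.0726). The coding sequences are 95% identical and the transcripts share a run of 58 bases, so reads could be split between the genes, and their separate values are uncertain.

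**Figure D4:**
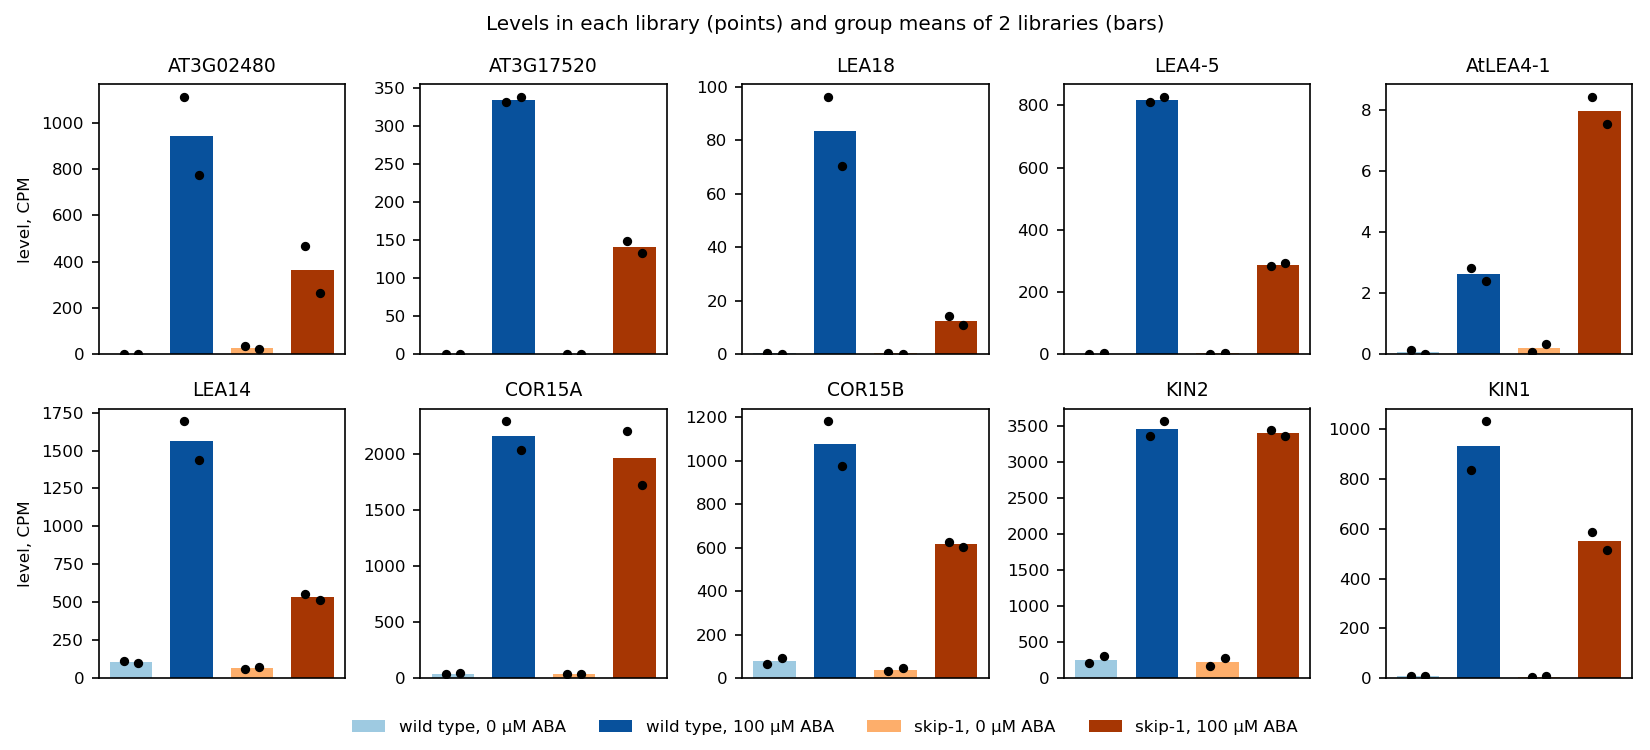
CPM on linear axes from 0 for 10 members, 1 panel each, with points for the 8 libraries and bars for the means of the 4 groups. With ABA the skip-1 points lie below wild type for LEA18, LEA4-5 and LEA14, above it for AtLEA4-1, and overlap it for KIN2 and COR15A.

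Between genotypes, the calls without ABA went in both directions, and nearly all calls with ABA were lower in skip-1. Without ABA 4 of 31 tested members were called, AT3G02480 and LEA27 higher and COR15B and LEA14 lower, where 20.5% of all features were called, 10.4% higher and the other 2102 features lower. The member median was 0.00, against 0.02 over all features, and the call of AT3G02480 was the one that held under every alternative tried. All 4 calls fell among the 15 members that passed the filter without ABA, whose median was -0.15. The other 16 had few counts without ABA and so could hardly be called there. With ABA, 15 of 31 members were lower and 1 was higher, where 31.0% of all features were called, 17.4% lower and 13.6% higher. The member median was -0.64, against -0.02 over all features. In the subset of 15 that passed the filter without ABA, 8 were lower and none was higher. The lower members were EM1 of the Em genes, 9 LEA_4 genes (LEA7, AT3G17520, AT2G42560, AT3G02480, AT3G15670, AT2G18340, UNE15, AT1G72100 and COR15B), LEA18 and LEA4-5, LEA14 and LEA26, and KIN1. UNE15 changed by -2.66 ± 0.56 (log2, edgeR adjusted p = 0.00909) on at most 3.50 CPM, or by -4.36 without replicate 2 of skip-1 with ABA, and its call was lost without replicate 2 of wild type with ABA (0.0531). AT2G18340 changed by -1.53 ± 0.37 (0.0231), AT1G72100 by -1.17 ± 0.36 (0.0387), LEA7 by -1.10 ± 0.29 (0.0270) and AT2G42560 by -1.81 ± 0.28 (0.00334). AT3G17520 changed by -1.25 ± 0.15 (0.000854). Only 7 of the 16 calls held under all 13 alternatives, those of AT3G17520, AT2G42560, AT3G15670, LEA18, LEA4-5, LEA14 and LEA26. Without either wild-type library with ABA 9 members were called, and without either skip-1 library with ABA 10. The calls of LEA7, AT2G18340 and AT1G72100 were each lost without any 1 of the 4 libraries with ABA, and over all alternatives their adjusted p reached 0.146, 0.138 and 0.221.

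**Figure D5:**
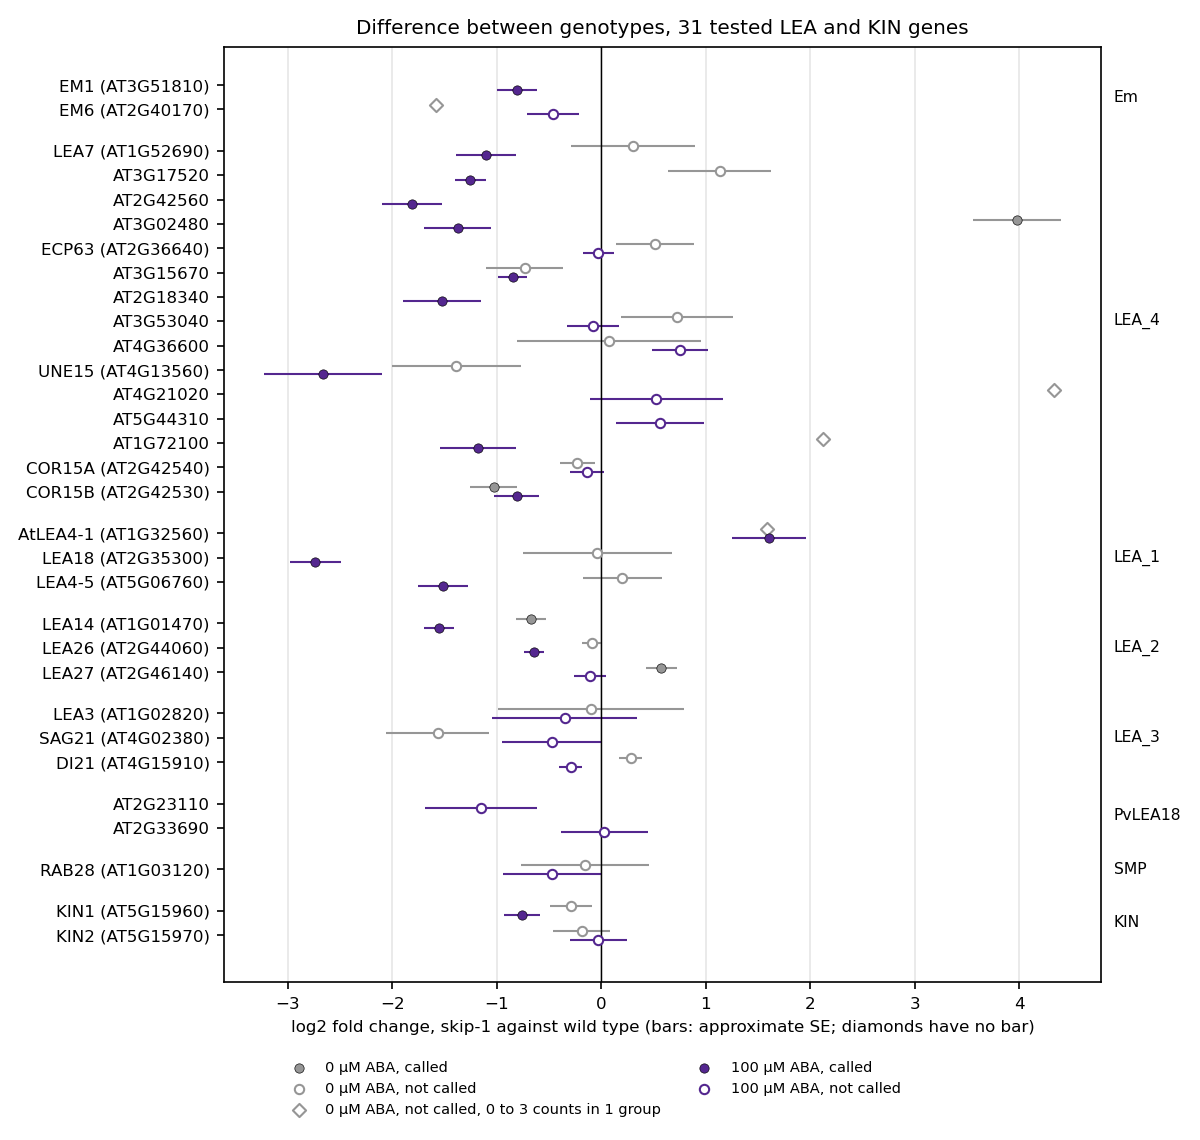
Log2 difference of skip-1 from wild type without ABA and with ABA for each tested member, with bars of 1 SE, filled symbols where the edgeR adjusted p is below 0.05 and diamonds where 1 group had 0 to 3 counts; members with at most 3 counts in both groups have no point. With ABA 15 filled symbols lie on the lower side and 1, AtLEA4-1, on the higher side.

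The difference between the ABA change in skip-1 and that in wild type was tested as an interaction. It was called for 2 of 31 members, AT3G02480 at -5.35 ± 0.53 (log2, edgeR adjusted p = 0.00817) and AT3G17520 at -2.39 ± 0.51 (0.0481), both for a smaller ABA change in skip-1. Part of this lay in the untreated libraries, where skip-1 was higher by 3.98 for AT3G02480 and by 1.13 for AT3G17520. The latter difference was not called and rests on 7 and 2 counts in wild type and 8 and 11 in skip-1. Over all features 3.07% were called, 2.27% lower and 0.800% higher. Of the 31 members, 16, AT3G17520 among them, passed the filter only through libraries with ABA. They had few counts without ABA, so a call was hard to reach. EM1 and AT2G18340 had no count without ABA in either genotype, and the SE was 3.52 for AT4G21020. For such members a missing call does not show that the ABA changes were alike. Of the 15 members that passed the filter without ABA, 1 was called lower. LEA14 (-0.88 ± 0.20, 0.0557), LEA26 (-0.55 ± 0.14, 0.0693), LEA4-5 (-1.72 ± 0.44, 0.0907), DI21 (-0.57 ± 0.16, 0.0954) and LEA18 (-2.70 ± 0.80, 0.120) missed the threshold. DESeq2 called 6 members and the fit with a replicate block 5, LEA14, LEA18 and LEA26 among them in both. AT3G02480 was lost without either wild-type library without ABA (up to 0.0533), and AT3G17520 in 8 of 13 alternatives (up to 0.154), 7 of which leave out a single library. For KIN2 and COR15A the interaction was 0.16 ± 0.39 (0.864) and 0.09 ± 0.23 (0.877).

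Per length, the order of the members changed with ABA. On the authors' FPKM scale, SAG21 was highest in wild type without ABA (mean 1124 FPKM), followed by KIN2 (557), LEA26 (173) and LEA14 (151), and LEA14 overlapped COR15B (127). With ABA the order in wild type was KIN2 (6595), COR15A (2962) and then LEA14 (1962), AT3G02480 (1915), KIN1 (1554) and COR15B (1505), of which each overlapped the next. Thus COR15B was above COR15A per length without ABA and below it with ABA. In skip-1 without ABA, KIN2 (477) and SAG21 (368) overlapped at the top and AT3G02480 (62.9), COR15B (60.7) and COR15A (51.4) overlapped in that order. With ABA, KIN2 (7148) and COR15A (2971) again led in skip-1, followed by KIN1 (1014) and COR15B (949), and LEA14 fell behind AT3G02480 (818) and SAG21 (768) with 739, though these overlapped.

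A list of known regulators of LEA genes was read beside the members. Of 21 listed regulators 14 were tested, and 10 were called higher with ABA in wild type and 7 in skip-1, with none lower in either, against 23.7% and 16.3% of all features called higher. CBF4, with 0 and 0 counts in untreated wild type and 0 and 5 in untreated skip-1, passed the filter only through libraries with ABA. These counts describe the listed regulators and are not evidence about them as a set. ABF3 and ABF2, bZIP factors that bind ABREs, rose by 3.82 ± 0.16 (log2, edgeR adjusted p = 8.70e-07) and 2.88 ± 0.17 (5.84e-06) in wild type, and by 2.59 ± 0.15 and 2.06 ± 0.17 in skip-1. ABI5, the bZIP factor that activates the Em genes, had 5.28 and 6.52 CPM in untreated wild type, 47.9 and 55.6 in treated wild type, 2.68 and 3.81 in untreated skip-1, and 13.3 and 17.1 in treated skip-1. Both skip-1 libraries of ABI5 were below both of wild type in each treatment. It rose by 3.13 ± 0.20 (6.89e-06) in wild type and 2.23 ± 0.21 (0.000140) in skip-1. DREB2A, a DRE-binding factor of drought, rose by 3.28 ± 0.25 (4.74e-05) and 2.45 ± 0.25 (0.000436). Between genotypes with ABA, 5 of the 14 regulators were lower in skip-1 and 2 higher, against 17.4% and 13.6% of all features. ABI5 was lower by -1.77 ± 0.19 (0.000590), ABF2 by -1.10 ± 0.16 (0.00212) and CBF4, a drought-inducible CBF, by -3.46 ± 0.56 (0.00624), while CBF2 was higher by 1.58 ± 0.29 (0.00514). The rest, named after their values were seen, were ICE1 (-0.41 ± 0.09, 0.00955), DREB2A (-0.98 ± 0.23, 0.0167) and the dormancy gene DOG1 (2.59 ± 0.70, 0.0321). ABF3, at 434 and 432 CPM in treated wild type and 295 and 356 in treated skip-1, was not called in the full fit. With the replicate block, ABF3 (edgeR adjusted p = 0.0283) and CBF1 (0.0279) were also called lower, and ABF3 was too without either wild-type library without ABA. DREB2A was not called without replicate 1 of wild type or either library of skip-1 with ABA (up to 0.0880). ICE1 was lost without replicate 2 of skip-1 with ABA (up to 0.0596), and DOG1 without that library, replicate 1 of skip-1 or replicate 2 of wild type with ABA (up to 0.124). Without ABA, 3 regulators were higher in skip-1, namely CBF2 (1.85 ± 0.31, 0.00578), ABF3 (0.82 ± 0.15, 0.00728) and DOG1 (2.83 ± 0.70, 0.0340), and ABI5 was lower (-0.87 ± 0.22, 0.0257), so that 4 of 14 were called against 20.5% of all features. The ABI5 call was lost without replicate 2 of wild type or replicate 1 of skip-1 (up to 0.147), that of CBF2 without replicate 2 of wild type (0.0512), and that of DOG1 without replicate 2 of wild type or either of skip-1 (up to 0.123), where DOG1 was at 4.47 without replicate 1 of wild type. ABF3 was the regulator with a called interaction, at -1.23 ± 0.20 (0.0216). It was lost without replicate 1 of wild type without ABA, either library of wild type with ABA, or replicate 1 of skip-1 with ABA (up to 0.0908). The seed master regulators had few counts: LEC1 had none, and ABI3 had 11 and 0 in untreated skip-1 and 6 and 3 in treated skip-1, and none in wild type. FUS3 and LEC2 had at most 4 counts in a library, and FUS3 had none in wild type. DPBF2, another listed regulator, had no count. Whether the levels of these regulators and of the LEA genes are linked was not tested.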

How the data were processed

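Messenger RNA of 8 seedling libraries was sequenced. The deposited table holds raw read counts per gene, and the FPKM values that the authors deposited beside it (fragments scaled by gene length and library total) equal the count divided by length and library total for all 24554 genes checked (relative tolerance 1e-04). Per the submitters' processing notes, Bowtie2 2.2.3, TopHat2 2.0.12 and HTSeq 0.6.1 were used with TAIR10. The sources used here name neither their options nor the strand setting.

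Counts were fitted in R 4.3.3 with edgeR 4.0.16: expression filter by group (21008 of 33674 features kept), TMM scaling, and a robust quasi-likelihood model of all 8 libraries with 1 coefficient per group and 4 residual degrees of freedom. Benjamini-Hochberg adjustment of the p-values ran over all tested features with a threshold of 0.05. Fold changes are log2 with the tool's prior count of 0.125, and the SE, the log2 change divided by the square root of F, is approximate. Where a group had no count, a floor of 3 counts over the group gave a lower bound. For 1 to 3 counts the ratio has an exact 95% interval that covers counting error only. The steps were tested on simulated data.

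Members and gene lists were chosen with earlier results of these data known. Members reaching a group mean of 10 CPM were given by library, and LEA3, AtLEA4-1 and RAB28 were added after their values were seen. Up to 4 regulators with the smallest adjusted p were named per comparison. Alternatives were RLE or library size scaling, no filter, DESeq2 1.42.0, a replicate block and leaving out each library. Positions and upstream sequence came from RefSeq TAIR10.1, which matched 32835 features and all 41 members, and coding sequences were aligned with Biopython 1.88.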

Additional observations from a re-analysis of the deposited data

Results flagged for a closer look

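The change with ABA differed between the genotypes for 2 members by the interaction test. The log2 interaction of AT3G02480 was -5.35 ± 0.53 (SE, edgeR adjusted p = 0.00817), with both skip-1 libraries above wild type without ABA and both below with ABA. The log2 interaction of AT3G17520 was -2.39 ± 0.51 (edgeR adjusted p = 0.0481), from 0.0810 to 0.517 CPM without ABA in all 4 libraries and from 133 to 338 CPM with ABA.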

How the results depend on the processing

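With 2 libraries per group, the calls between genotypes rest on few values. No member changed direction past the threshold under any of the 13 alternatives, and 26 of 30 calls with ABA in wild type, 23 of 25 in skip-1, 1 of 4 between genotypes without ABA, 7 of 16 with ABA and 0 of 2 interactions held under all of them. Leaving out 1 library gave 2 to 4 members called between genotypes without ABA, 9 to 16 with ABA and 0 to 3 for the interaction, and the latter was 1 with library size scaling, 6 with DESeq2 and 5 with a replicate block. Over all features, leaving out 1 library gave 3532 to 5625 calls for ABA in skip-1 (5978 in the full fit), 1383 to 3785 between genotypes without ABA (4297), 3521 to 6851 with ABA (6504) and 121 to 608 for the interaction (644). The interaction count was 1201 with DESeq2 and 1357 with a replicate block. Library size scaling moved the median log2 change of all features from -0.01 to -0.22 for ABA in wild type, from -0.02 to 0.12 between genotypes with ABA and from -0.02 to 0.15 for the interaction, and the share of calls that were higher from 54.9% to 36%, from 43.9% to 62.6% and from 26.1% to 55.5%. The labels do not say that equal replicate numbers were handled together, and the deviations of equally numbered replicates correlated at 0.131 to 0.327 over 6 pairs of groups. With 2 numbers this does not show a pairing, and the replicate block is given here as an alternative.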
